A study of Mus musculus with 6 samples.

Results

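The core circadian clock was examined in inguinal white adipose tissue (iWAT), fat that lies under the skin, from 3 mutant and 3 Wt mice. The set holds 10 genes, taken by symbol from the 55573 genes listed: *Arntl*, *Clock* and *Npas2* of the positive limb, and *Per1*, *Per2*, *Per3*, *Cry1*, *Cry2*, *Nr1d1* and *Nr1d2* of the negative limb. Each symbol had 1 row, and all 10 passed the filter on low values that left 16868 genes. The set was chosen by its known function after the mutant and Wt values of some of its genes had been seen, so the differences between genotypes of these genes are given as a description, without p-values.

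The mutant mice were homozygous for a global knock-in of *Thra*, THRA K283Q/K288R, which replaces 2 lysines at a sumoylation site of thyroid hormone receptor alpha in every tissue. The Wt mice carried no mutation. Both groups were untreated C57BL/6NTac males, 3 months old, on regular chow, with 1 library per mouse. The time of day at which the fat was taken is not given in the sources used here, nor whether it was the same for both genotypes.

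The mammalian clock is a loop of transcription and repression that runs in nearly every cell and keeps a period of about a day. BMAL1, the product of *Arntl*, pairs with CLOCK or with its paralogue NPAS2 and activates genes that carry E-boxes, among them the *Per*, *Cry* and *Nr1d* genes. PER and CRY proteins then repress the BMAL1 complex, and REV-ERB alpha and beta, the products of *Nr1d1* and *Nr1d2*, repress *Arntl*, *Clock* and *Npas2* through ROR response elements (RORE). Many genes of the limbs thus peak at opposite times of the day, though not all do, and in fat the clock sets daily rhythms of lipolysis and adipokine release.

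The promoter stretches that hold the letters of such elements are shown as background. Membership of a limb was not decided by them. Of the 10 genes, 9 have a promoter window in RefSeq (GRCm38.p6, 250 bases before to 50 after a gene start), and *Per2* has none there. Capitals mark the motif, sequences read 5′ to 3′ on the strand of the gene, and offsets count from the RefSeq gene start of that window. The *Per1* stretch comes from 1 of its 2 windows. The start used there, 69098949, lies inside the span of the gene (69095217 to 69109960), not at its first base.
*Per1* (chr11:69098756-69098815, + strand, E-box at offset -166): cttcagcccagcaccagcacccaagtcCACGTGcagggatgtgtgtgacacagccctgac
*Cry1* (chr10:85185092-85185151, - strand, E'-box at -79 and E-box at -60): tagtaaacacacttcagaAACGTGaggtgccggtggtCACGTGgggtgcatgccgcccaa
*Cry2* (chr2:92434203-92434262, - strand, E'-box at -166): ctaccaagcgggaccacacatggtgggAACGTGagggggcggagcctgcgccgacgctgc
*Nr1d1* (chr11:98775378-98775437, - strand, E'-box at -28): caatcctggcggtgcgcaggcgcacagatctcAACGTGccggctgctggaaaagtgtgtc
*Per3* (chr4:151044814-151044873, - strand, D-boxes at -205 and -158): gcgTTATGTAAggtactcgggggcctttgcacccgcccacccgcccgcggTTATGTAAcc
*Arntl* (chr7:113207529-113207558, + strand, RORE core at 30): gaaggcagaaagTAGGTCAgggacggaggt

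Both strands were searched. *Clock* had 3 windows and *Arntl* and *Per1* had 2 each, and a gene counted if any of its windows held the motif. The percentages are per window, so the 2 measures are not alike. The E-box CACGTG was in the windows of 2 of the 9 genes and in 7.15% of the 32851 promoter windows of RefSeq. The E'-box CACGTT, read as AACGTG on the other strand, was in 3 of the 9 genes and in 4.68% of windows. The D-box TTATGTAA, a site for the PAR bZIP factors DBP, TEF and HLF, lies in the window of *Per3* alone among the 9, in 2 copies, and in 0.938% of all windows. The RORE core TAGGTCA was in *Arntl* and in 2.61% of windows. The letters TTACGTAA (0.119% of windows), TGGGTCA (3.98%) and those of the cAMP response element, TGACGTCA (1.79%), were in none of the 9.

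Libraries held 19607423 to 24228381 reads on genes, and the members had between 53 reads (*Npas2* in Wt mouse 2) and 9921 reads (*Nr1d1* in Wt mouse 1) in a mouse. The deposited values are normalized CPM (reads of a gene relative to the library size, with a further scaling factor for each mouse). Adipocyte markers were abundant in all mice, with 6 genes summing to 16780 to 24930 in Wt and 17670 to 27840 in mutant mice, and 0 of the 6 differed past the false discovery rate (FDR) of 0.05. Some markers of other cells moved with genotype. Of 8 mesothelial markers 6 were higher in mutant mice past the FDR, and the sum of all 8 was 4.96 to 41.8 in Wt and 36.4 to 75.9 in mutant mice. The highest Wt sum, in mouse 1, was mostly *Krt19* (28.5) and *Krt8* (10.1), the 2 that did not pass, while each of the other 6 was higher in every mutant mouse than in any Wt mouse. *Wt1* was at 0 in Wt mouse 1, and *Upk3b*, *Upk1b* and *Bnc1* were at 0 in Wt mouse 2. Of 7 skeletal muscle markers, *Myh1* passed the FDR, at 31.1, 279 and 166 in Wt and 2405, 1986 and 2385 in mutant mice. *Myh2* (23.0, 172 and 57.0 in Wt, 439, 257 and 443 in mutant mice) and *Mb* (12.7, 142 and 51.5, then 326, 222 and 328) did not pass. Both were still higher in every mutant mouse than in any Wt mouse. The other 4 overlapped, as did the sum of the 7 (10090 to 21610 in Wt, 16120 to 25140 in mutant mice). Mutant mouse 1 stood apart in lymphocyte markers, with 4 B cell genes summing to 2.36 against 258 to 553 in Wt mice and 320 and 505 in the other mutant mice. The 4 T cell genes summed to 2.46 in that mouse, to 66.8 to 254 in Wt mice and to 111 and 138 in the other mutant mice, and 0 of the 8 lymphocyte genes passed the FDR. The sums of 4 macrophage genes (525 to 594 in Wt, 489 to 604 in mutant mice), 3 endothelial genes (634 to 695 and 656 to 752) and 4 epithelial genes (3.84 to 51.0 and 2.39 to 20.3) overlapped, with 0 past the FDR and *Krt5* at 0 in mutant mouse 3. Of 3 brown or beige adipocyte genes, *Ucp1* was lower past the FDR, and their sum was 52.4 to 79.9 in Wt and 34.1 to 57.2 in mutant mice. The part of these cells in the clock values was not tested. Since RNA came from whole tissue, fewer cells of a type and less RNA per cell cannot be told apart.

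The positive limb was higher in every mutant mouse. *Arntl* (ENSMUSG00000055116, chromosome 7 of GRCm38, 113207465 to 113314126) had normalized CPM of 10.1, 14.8 and 13.5 in Wt mice 1, 2 and 3 and of 38.7, 42.1 and 35.7 in mutant mice 1, 2 and 3. The lowest mutant value was 2.41 times the highest Wt value. The means were 12.8 ± 2.44 (SD, n = 3) and 38.8 ± 3.18 (SD, n = 3), a log2 fold change on log2(value + 0.5) of 1.58 (standard error 0.16). *Npas2* (ENSMUSG00000026077, chromosome 1, 39193731 to 39363236), which can stand in for *Clock* as the partner of BMAL1, had the widest separation of the 10 genes. Its normalized CPM was 2.47, 2.58 and 2.69 in Wt and 12.4, 12.1 and 9.55 in mutant mice. The Wt mice were close together, at 2.58 ± 0.110 (SD, n = 3), and the ratio of means was 4.4. The log2 fold change on log2(value + 0.5) was 1.93 (standard error 0.15), and 1.78 to 2.15 over the alternatives. *Clock* (ENSMUSG00000029238, chromosome 5, 76209868 to 76304792), which encodes the usual partner of BMAL1, was at 58.1, 60.4 and 49.8 in Wt and 92.2, 82.5 and 77.5 in mutant mice. Its genotypes did not overlap either, but its ratio of means was smaller, at 1.5, which is 0.58 (standard error 0.11) in log2.

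**Figure D1:**
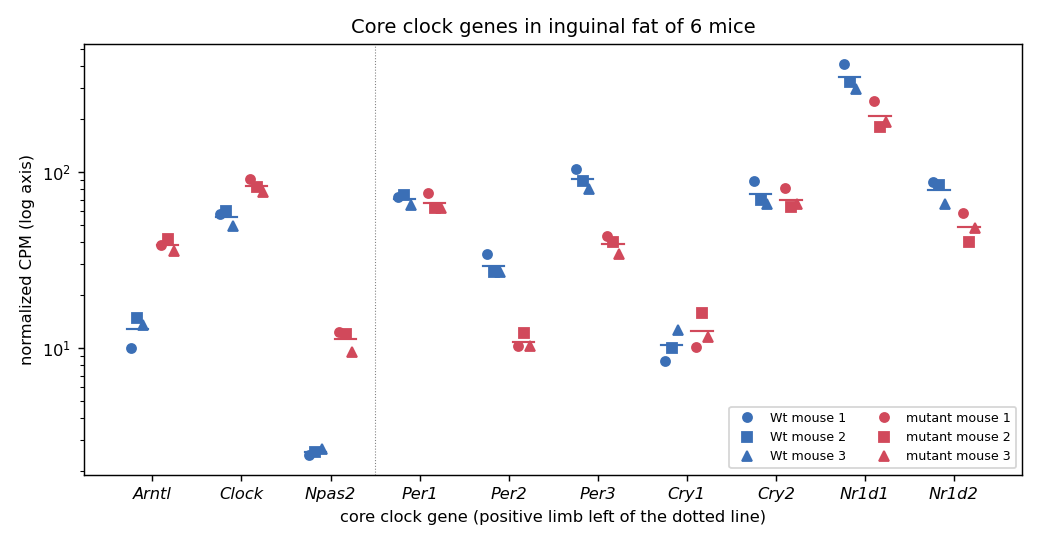
Normalized CPM (log axis) of the 10 core clock genes in each mouse, Wt in blue and mutant in red, with horizontal lines at the means of 3 mice. *Arntl*, *Clock* and *Npas2* lie higher in all mutant mice, *Per2*, *Per3*, *Nr1d1* and *Nr1d2* lie lower, and *Per1*, *Cry1* and *Cry2* overlap.

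The PER genes, whose products carry the repressor complex into the nucleus, did not all differ between genotypes in the same way. *Per2* (ENSMUSG00000055866, chromosome 1, 91415982 to 91459324) had normalized CPM of 34.4, 27 and 27.2 in Wt and of 10.3, 12.2 and 10.3 in mutant mice. *Per3* (ENSMUSG00000028957, chromosome 4, 151003652 to 151044665) was at 104, 89.1 and 80.8 in Wt and at 43.3, 40.0 and 34.3 in mutant mice. For both genes, the highest mutant mouse lay well below the lowest Wt mouse, by 2.22 times for *Per2* and 1.86 times for *Per3*. The log2 fold changes were -1.39 (standard error 0.13) for *Per2* and -1.21 (standard error 0.13) for *Per3*. *Per1* (ENSMUSG00000020893, chromosome 11, 69095217 to 69109960), which is also induced acutely by hormones and cAMP, was at 72.9, 74.3 and 65.3 in Wt and at 75.9, 62.8 and 62.8 in mutant mice. Its genotypes overlapped, with a log2 fold change of -0.08 that was smaller than its standard error of 0.11 and became 0.14 under a correction for GC content.

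The CRY genes encode the direct repressors of the BMAL1 complex. *Cry1* (ENSMUSG00000020038, chromosome 10, 85131700 to 85185064) was at 8.46, 10.1 and 12.7 normalized CPM in Wt and at 10.2, 16.0 and 11.6 in mutant mice. *Cry2* (ENSMUSG00000068742, chromosome 2, 92403646 to 92434043) was at 89.5, 69.9 and 66.1 in Wt and at 81.3, 63.5 and 65.7 in mutant mice. Both genes overlapped between genotypes. The log2 fold change was 0.25 (standard error 0.22) for *Cry1* and -0.09 (standard error 0.15) for *Cry2*, and it ranged over the alternatives from 0.07 to 0.40 and from -0.20 to 0.04. *Per1* and *Cry2* stayed in nearly the same proportion in both genotypes, with a ratio of *Per1* to *Cry2* of 0.955 ± 0.127 (SD, n = 3) in Wt and 0.96 ± 0.0285 (SD, n = 3) in mutant mice.

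The REV-ERB genes, the repressors of the positive limb, were lower in all mutant mice, by less than *Per2* and *Per3*. *Nr1d1* (ENSMUSG00000020889, chromosome 11, 98767932 to 98775333) was at 416, 328 and 300 normalized CPM in Wt and at 255, 180 and 192 in mutant mice. *Nr1d2* (ENSMUSG00000021775, chromosome 14, 18204054 to 18239127) was at 88.4, 84.7 and 66.0 in Wt and at 58.7, 40.0 and 48.5 in mutant mice. The groups were close, with the lowest Wt mouse 1.18 times the highest mutant mouse for *Nr1d1* and 1.12 times for *Nr1d2*. The log2 fold changes were -0.74 (standard error 0.18) and -0.70 (standard error 0.17). Neither gene passed the FDR, and they were called in 5 and 6 of 17 alternatives. *Nr1d2* kept the same ratio to *Nr1d1* in both genotypes, 0.23 ± 0.0242 (SD, n = 3) in Wt and 0.235 ± 0.0156 (SD, n = 3) in mutant mice.

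*Nr1d1* lies beside the mutated gene. The 3′ ends of *Nr1d1* and *Thra* overlap on opposite strands and share 263 exonic bases, which are 8.55% of the exonic bases of *Nr1d1*. Whether the counting used strand is not stated in the sources used here. *Thra* was at 131 ± 15.2 (SD, n = 3) in Wt and 149 ± 18.3 (SD, n = 3) in mutant mice, so the ratio of *Nr1d1* to *Thra* within a mouse was 2.83, 2.56 and 2.56 in Wt and 1.5, 1.29 and 1.41 in mutant mice. *Arntl* shares 33 exonic bases and *Cry2* 295 with a gene on the other strand, each at less than 1% of the level of the clock gene (ratios of 0.0033 and 0.0075). The other 7 members share none.

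Over the 10 genes, 3 were higher (*Arntl*, *Clock* and *Npas2*) and 2 lower (*Per2* and *Per3*) in mutant mice at an FDR of 0.05 (limma with Benjamini-Hochberg adjustment over all genes tested). As background, 5.50% of the 16868 genes tested were higher and 2.61% lower, 8.11% in all. The split of these background calls was not stable, with 67.8% of them higher here and 42.7% to 89.5% over the alternatives. Without overlap between genotypes there were 3 higher and 4 lower members, where 14.9% and 15.7% of the genes tested were so, 30.6% in all. The median size of the log2 fold change, regardless of sign, was 0.72 over the 10 genes and 0.22 over all genes tested. These counts come from the contrast with which the genes were chosen, and nothing is read from them. In size of the log2 fold change, 1.59% of all genes tested reached that of *Npas2*, 2.96% that of *Arntl*, 4.06% that of *Per2* and 5.47% that of *Per3*. The share was 12.6% for *Nr1d1*, 13.7% for *Nr1d2*, 17.8% for *Clock*, 44.8% for *Cry1*, 75.9% for *Cry2* and 79.7% for *Per1*.

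**Figure D2:**
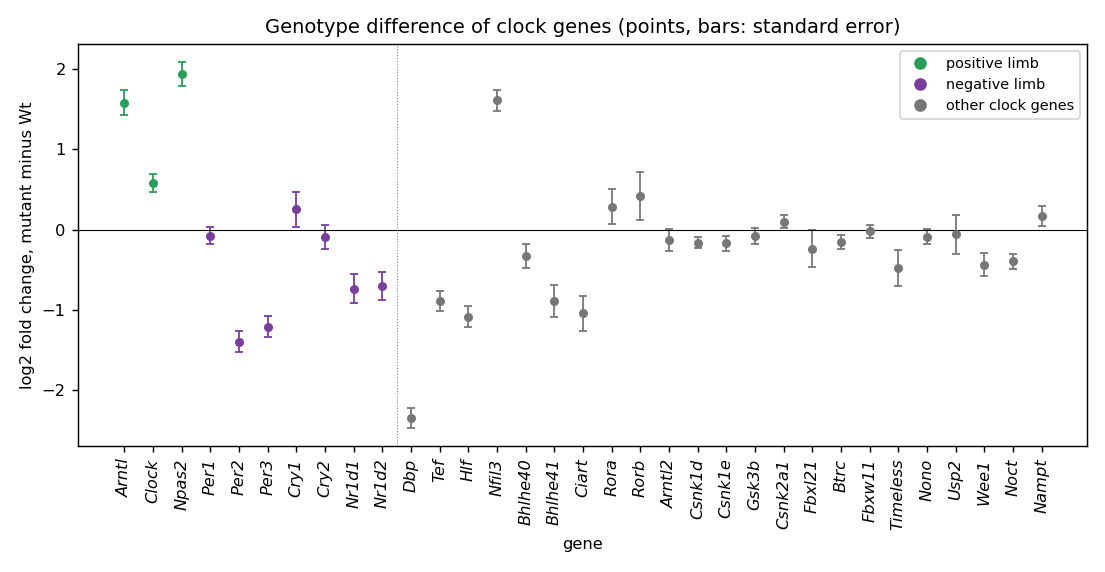
Log2 fold change, mutant minus Wt, on log2(normalized CPM + 0.5), with its standard error, for the 10 core clock genes left of the dotted line and 23 other clock genes right of it. *Npas2* (1.93) and *Nfil3* (1.61) are the highest, and *Dbp* (-2.34) and *Per2* (-1.39) the lowest.

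A difference between genes of the same mouse does not depend on how the libraries were scaled. The mean log2(value + 0.5) of the positive limb minus that of the negative limb came to -2.51, -2.14 and -2.18 in the Wt mice. In the mutant mice it came to -0.37, -0.26 and -0.41. The means were -2.28 ± 0.20 (SD, n = 3) and -0.35 ± 0.08 (SD, n = 3), which are 1.93 apart. The positive limb by itself differed by 1.36, mutant minus Wt, and the negative limb by -0.57. Without mutant mouse 1, which stood apart in lymphocyte markers, the limbs differed by 1.94 and the log2 fold changes were 1.58 for *Arntl*, 1.87 for *Npas2*, -1.35 for *Per2* and -1.28 for *Per3*.

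**Figure D3:**
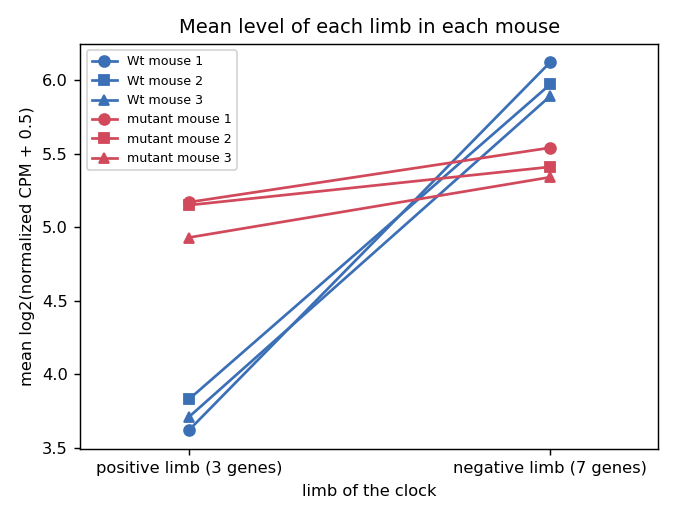
Mean log2(normalized CPM + 0.5) of the 3 positive limb genes and of the 7 negative limb genes, joined by a line for each mouse, Wt in blue and mutant in red. The lines of the Wt mice are steep, with a positive limb of 3.62 to 3.83, and those of the mutant mice are flatter, with 4.93 to 5.17.

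Ratios of single genes within a mouse restate these differences. *Arntl* was higher, and *Per2* and *Nr1d1* lower, in every mutant mouse than in any Wt mouse, so the ratios below could not overlap between genotypes. *Arntl* was at 0.293, 0.549 and 0.496 times the level of *Per2* in Wt mice and at 3.77, 3.46 and 3.47 times in mutant mice, in normalized CPM. *Arntl* to *Nr1d1* was 0.0382 ± 0.012 (SD, n = 3) in Wt and 0.19 ± 0.0409 (SD, n = 3) in mutant mice. Among the Wt mice, mouse 1 had the lowest *Arntl*, *Npas2* and *Cry1* and the highest *Per2*, *Per3*, *Cry2*, *Nr1d1* and *Nr1d2*. It lay between the other Wt mice in *Clock* and *Per1*. Among the mutant mice, mouse 2 had the highest level of both *Arntl* and *Per2* and the lowest of *Nr1d1* and *Nr1d2*.

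Levels of different genes were compared per length, as normalized CPM per kb of merged exons (GENCODE M21). Merged exons join those of all annotated transcripts of a gene, so a gene that mainly makes a shorter transcript is understated. The order of genes and the shares of paralogues depend on this length, and which transcripts were present was not examined. In Wt mice *Nr1d1* was far above the rest at 113 ± 19.6 (SD, n = 3), and *Npas2* was lowest at 0.539 ± 0.023 (SD, n = 3). *Nr1d2* (14.7 ± 2.22), *Per1* (12.6 ± 0.854), *Cry2* (11.9 ± 1.98) and *Per3* (9.51 ± 1.25) followed *Nr1d1*, and each overlapped with its neighbour in this order. *Per2* (5.05 ± 0.721) was separate from *Per3* above and from *Clock* (4.09 ± 0.404) below, *Clock* overlapped with *Cry1* (3.12 ± 0.641), and *Arntl* (1.70 ± 0.325) lay below *Cry1* and above *Npas2* without overlap. The order differed in mutant mice. *Nr1d1* was again the highest, at 68.0 ± 13.0 per kb (SD, n = 3), but *Clock* (6.12 ± 0.546) and *Arntl* (5.16 ± 0.422) now lay above *Per3* (4.08 ± 0.478), and *Per2* was last at 1.86 ± 0.185, overlapping with *Npas2* at 2.37 ± 0.327.

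Within families the shares of the paralogues differed between genotypes for some genes. *Per1* made up 43.6%, 48.7% and 47.1% of the summed *Per* level per kb in Wt mice and 68.3%, 64.1% and 67.7% in mutant mice, while the sum itself was 27.1 ± 2.52 (SD, n = 3) in Wt and 17.9 ± 1.69 (SD, n = 3) in mutant mice. *Npas2* made up 11.7% ± 1.46 (SD, n = 3) of the sum of *Clock* and *Npas2* in Wt and 27.8% ± 1.73 (SD, n = 3) in mutant mice. *Nr1d1* held 88.4% ± 1.07 (SD, n = 3) and 88.2% ± 0.69 (SD, n = 3) of the *Nr1d* sum. The summed *Cry* level per kb was 15 ± 1.46 (SD, n = 3) in Wt and 14.9 ± 1.03 (SD, n = 3) in mutant mice, so that the *Cry* sum overlapped between genotypes where the *Per* and *Nr1d* sums did not.

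**Figure D4:**
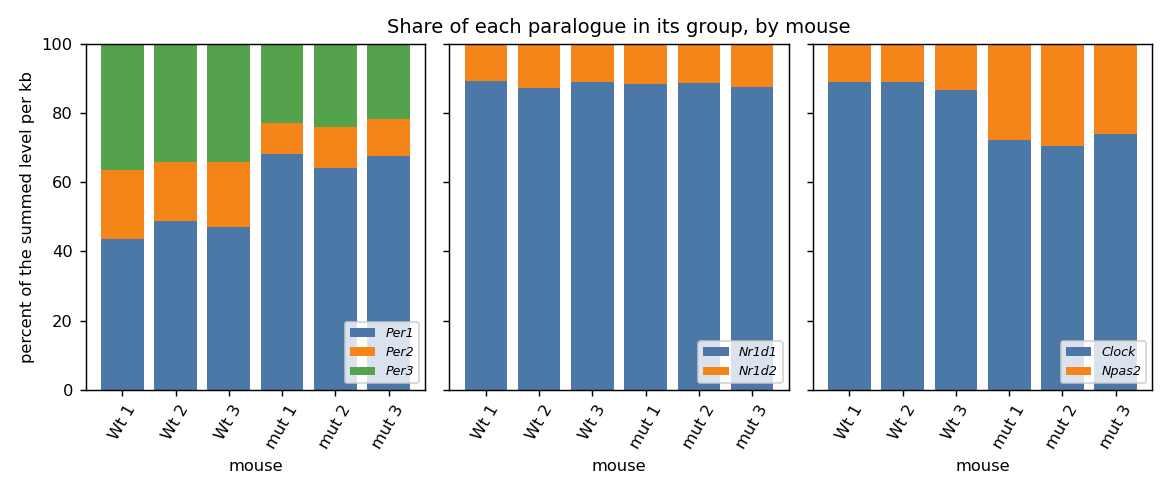
Share of each paralogue, in percent of the summed level per kb, for the *Per*, *Nr1d* and *Clock* with *Npas2* genes, 1 stacked bar per mouse (Wt 1 to 3, mutant 1 to 3). *Per1* and *Npas2* take larger shares in the mutant mice, and the shares of *Nr1d1* and *Nr1d2* are alike in all 6.

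A further 23 genes of the clock, listed by function, were compared by limma with adjustment over all genes tested. All 23 passed the filter on low values, 1 was higher and 5 were lower in mutant mice past the FDR (5.50% and 2.61% of all genes tested), and 17 did not pass. *Dbp*, *Tef* and *Hlf* encode the PAR bZIP activators of D-boxes. Earlier results on these 3 genes were known when the list was written, so they are described without p-values. The count of lower genes holds all 3, and nothing is read from it. *Dbp* fell from 121, 113 and 110 normalized CPM in Wt mice to 25.6, 18.9 and 22.5 in mutant mice. This is -2.34 in log2 with a standard error of 0.12, and -2.44 to -2.08 over the alternatives. *Tef* (-0.89 in log2) and *Hlf* (-1.08) fell too. *Nfil3*, whose product represses the same D-boxes, rose from 5.87, 5.54 and 5.13 to 19.2, 18.8 and 15.6, which is 1.61 in log2 with a standard error of 0.13 (adjusted p = 0.0017 by limma, and 1.67e-20 to 0.0155 over the alternatives). The ratio of *Dbp* to *Nfil3* was 20.8 ± 0.566 (SD, n = 3) in Wt and 1.26 ± 0.226 (SD, n = 3) in mutant mice. *Dbp* shares 539 exonic bases with *Sphk2* on the other strand, which was at 33.6 to 39.9 in the 6 mice.

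Of the 3 genes of E-box repressors, 2 were lower. *Bhlhe41*, which encodes DEC2, had a log2 fold change of -0.89 (adjusted p = 0.0468, limma), and *Ciart*, which encodes CHRONO, one of -1.04 (adjusted p = 0.0355, limma) from 50 to 72 reads in Wt and 16 to 27 in mutant mice. Both calls were lost in 7 of 17 alternatives, with adjusted p up to 0.162 for *Bhlhe41* and 0.102 for *Ciart*. *Bhlhe40*, the gene of DEC1, had a log2 fold change of -0.33 (adjusted p = 0.229, limma). Of the genes of RORE activators, *Rora* had a log2 fold change of 0.29 (adjusted p = 0.441, limma) and *Rorb* one of 0.42 (adjusted p = 0.419, limma). None of the 4 kinase genes (*Csnk1d*, *Csnk1e*, *Gsk3b*, *Csnk2a1*), the 3 ubiquitin ligase genes (*Fbxl21*, *Btrc*, *Fbxw11*) or the 2 partners of PER (*Timeless*, *Nono*) passed, with log2 fold changes of -0.17 to 0.10, -0.24 to -0.02 and -0.48 to -0.09. *Arntl2*, the paralogue of *Arntl*, was at 8.0 ± 0.609 (SD, n = 3) in Wt and 7.28 ± 0.75 (SD, n = 3) in mutant mice (adjusted p = 0.566, limma). Of the 4 genes taken as E-box driven outputs, *Noct* (-0.40, adjusted p = 0.056, limma) and *Wee1* (-0.44, adjusted p = 0.129, limma) had genotypes that did not overlap but did not pass (*Noct* passed in 4 of 17 alternatives, with adjusted p of 0.0157 to 0.185 over all 17), and *Usp2* (-0.06) and *Nampt* (0.17) overlapped.

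The genes with the profile most like a clock gene were sought among the other genes tested, by the root mean square distance of log2(value + 0.5) over the 6 mice after centring each gene on its mean. For *Arntl* the nearest 5 were ENSMUSG00000097358, *Gm9823*, *Gm17080*, *Gm15243* and *B430218F22Rik*, at distances of 0.069 to 0.102. All 5 were weakly expressed, with Wt means of 0.105 to 0.551 normalized CPM, and each shares exonic bases with a gene on the other strand at least 10 times as abundant. Their distances therefore depend on the pseudocount of 0.5. ENSMUSG00000097358, the nearest, had means of 0.105 in Wt and 1.304 in mutant mice, against 12.8 and 38.8 for *Arntl*. *Npas2* was at 0.239 from *Arntl* and *Clock* at 0.538. For *Per2* the nearest were *Baiap2l2*, *Gm37795*, *Net1*, *1010001B22Rik* and *Slc5a6*, at 0.093 to 0.173, and 0 of these 5 has such a gene on the other strand. *1010001B22Rik* was weakly expressed too, at 0.631 to 0.67 in Wt and 0 in all mutant mice, so its distance depends on the pseudocount. *Per3* lay within this range, at 0.153 from *Per2*. *Net1*, which encodes a guanine nucleotide exchange factor for RhoA, was at 253, 233 and 209 in Wt and 106, 94.1 and 86.9 in mutant mice, and *Slc5a6*, the gene of the sodium-dependent multivitamin transporter, at 45.0, 35.6 and 35.6 and at 18.9, 15.7 and 14.4. The distance describes these 6 mice and is set largely by the difference between genotypes.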

How the data were processed

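RNA-seq libraries of iWAT from 3 mutant and 3 Wt mice were used, grouped by the titles of the samples. The authors deposited 1 signal value for each gene in each mouse, a CPM divided by a further factor of that mouse. The submitters' processing notes name mm10, Bowtie2 2.1.0, RSEM 1.2.15 and edgeR. Annotation and use of strand are not given in the sources used here. All values above 0 (100.0%, tolerance 0.01 reads) were whole multiples of what 1 read is worth in that mouse, so reads were recovered. In each mouse 3 reads, the floor used here, correspond to 0.126 to 0.157, for counting error only. Pairs of mice of a genotype differed far beyond sampling noise (chi-square over its degrees of freedom, 19.3 to 63.8).

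Genotypes were compared with limma 3.58.1 (R 4.3.3, mean-variance trend, two-sided) on log2(value + 0.5), a scale that understates the change of low genes, with Benjamini-Hochberg adjustment and an FDR of 0.05, over the 16868 genes that passed filterByExpr (edgeR 4.0.16), run on recovered reads. Only the limma model was tried on simulated reads with known changes, scaled by library size. The other settings were not tried on simulated data. With 3 mice per genotype, the smallest p of an exact permutation test (two-sided) is 0.1, and none was used. Alternatives were other pseudocounts, filters and scalings, DESeq2 1.42.0 (Wald test) and the quasi-likelihood test of edgeR on the reads, mouse number as a replicate block, and each mouse omitted in turn. Added later, with the data seen, were a GC correction (20 bins) and a table without genes that lie opposite an abundant one. The members and lists were chosen with earlier results of these data known. The list of other clock genes held 2 more, not reported here. Genes named are the members, the other clock genes, *Thra*, other-strand partners and the nearest profiles. Of the genes listed, 55480 were found in GENCODE M21 (GRCm38), which gave coordinates and lengths. Python 3.11.15, pandas 2.3.3 and Matplotlib 3.10.9 were used for other steps.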

Additional observations from a re-analysis of the deposited data

How the results depend on the processing

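Across the 17 alternatives run on each gene, *Dbp*, *Tef*, *Hlf* and *Nfil3* kept their direction and their side of the FDR. For *Dbp*, *Tef* and *Hlf*, whose earlier results were known, this is a description only. The count of core members called, a description of the contrast with which they were chosen, lay between 4 and 7. *Clock* was not called in the 6 fits that left out a mouse, and *Nr1d1* and *Nr1d2* were called in 5 and 6 alternatives. The count of other clock genes called lay between 4 and 8, and *Noct* was called with DESeq2 (adjusted p = 0.017) and with scaling by library size only (adjusted p = 0.0362). The limbs differed by 1.81 to 2.0 in every alternative run for them. This too is a description only, since the limbs are made of the members. A change of scaling could hardly move the limb difference (1.93 with library size only and with DESeq2 size factors). The replicate block could not be run for the limb difference, which has no test. The count over all genes moved from 1368 to 598 with at least 10 reads in every mouse, 2118 with DESeq2, 344 without genes under an abundant gene on the other strand (where *Clock*, *Bhlhe41* and *Ciart* were not called), and 554 to 1005 with 1 mouse left out (840, 554 and 581 without Wt mice 1, 2 and 3, 587 and 776 without mutant mice 2 and 3). The share of higher genes among the calls was 67.8%, and it was 79.4% with scaling by library size only, 77.4% with no filter, 57.7% with at least 10 reads in every mouse, 51.5% without genes that lie opposite an abundant one, 86.4% with the GC correction, 73.6% to 89.5% with 1 mouse left out and 42.7% with the replicate block, where more genes were lower than higher. The small log2 fold changes of uncalled genes changed sign in single fits: with 1 mouse left out *Fbxw11* ranged from -0.05 to 0.02 and *Usp2* from -0.30 to 0.11, and *Usp2* was at 0.00 under the GC correction. The cause of these moves was not tested.

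With mouse number as a replicate block, 4063 genes were called (3250 with the GC correction too), among them 7 core members (with *Nr1d1* and *Nr1d2*) and 8 other clock genes (with *Timeless* and *Noct*), and *Usp2* was at 0.00 with block and GC correction. After subtraction of the genotype mean, mice with the same number correlated at 0.69, 0.06 and 0.56 across genes, and Wt mouse 2 correlated best with mutant mouse 3 (0.33), so the numbers were not taken as pairs.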
